A study of Mus musculus with 2 samples.

Results

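The 9 genes described here encode proteins of the red cell membrane that carry blood group antigens or form complexes with the proteins that do: Slc4a1 (band 3), Gypc (glycophorin C), Rhag and Rhd (the Rh complex), Icam4 and Cd47, Kel and Xk (the Kell complex) and Ermap. They were taken by symbol, by a rule that uses no measured value, but were chosen with earlier results of these data known. All 9 were found among the 55536 genes of the table. RNA with poly(A) tails was sequenced, with paired ends, from the mouse erythroid line G1E-ER4 after 24 h in 17beta-estradiol at 10 nM. The line derives from Gata1-null cells, and GATA1 is restored in it through a fusion protein that estradiol activates, so all values come from cells that mature under an inducible factor and not from an animal. The 1 group held 2 libraries, numbered as biological replicates 1 and 2 in the labels. Both carry the same biosample record, with no word on whether the cultures were separate, and their spread may thus be technical. No untreated or parental sample was analysed here, so every value is a level in treated cells and not a change, and no test between conditions exists.

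Band 3 exchanges chloride for bicarbonate and, through ankyrin, ties the membrane to the spectrin skeleton. The Rh proteins, Icam4 and Cd47 assemble with it in the ankyrin-bound complex, while glycophorin C anchors the membrane to the skeleton through protein 4.1 in a separate junctional complex. Kell is an endopeptidase linked to the XK protein by a disulfide bond, and both are lost or reduced together in McLeod syndrome.

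The cells were collected after GATA1 had been activated, and the sequence before the start of the genes is shown first, with the letters that GATA factors bind. Of the 9 genes, 7 have an entry in the RefSeq promoter table (GRCm38.p6), and Slc4a1 and Gypc have none. The 250 bases before each RefSeq start were searched on both strands for the letters GATA with A or T before them and with A or G after them, which makes 4 words of 6 letters, and a base could count in more than 1 word. A word was found in 5 of the 7 genes, against 29.7% of 27025 genes and 26.5% of 32851 windows in that table. Each run below is read 5′ to 3′ along the gene and, Icam4 apart, ends where the first exon of GENCODE M21 begins (in Kel 1 base later, to hold the word whole). The GATA word is in capitals, or its reverse complement where the word is on the other strand. Distances are counted to the RefSeq start, which, except in Rhd, lies beyond the end of the run shown. The positions given are those of the whole run. In Rhd the word begins 43 bases before the start, at chr4:134864456-134864535, plus strand. In Rhag it begins 31 bases before, at chr17:40811069-40811125, plus strand. Kel has words 56 and 19 bases before, at chr6:41704339-41704405, minus strand. In Ermap the word begins 67 bases before, at chr4:119190012-119190075, minus strand. In Icam4 it begins 43 bases before the RefSeq start, at chr9:21029377-21029406, plus strand, and lies inside the first exon of the GENCODE model Icam4-201.
Rhd: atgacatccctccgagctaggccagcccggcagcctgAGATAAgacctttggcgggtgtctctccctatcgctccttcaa
Rhag: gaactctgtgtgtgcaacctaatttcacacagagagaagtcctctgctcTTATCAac
Kel: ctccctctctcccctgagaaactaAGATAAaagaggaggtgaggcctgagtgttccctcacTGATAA
Ermap: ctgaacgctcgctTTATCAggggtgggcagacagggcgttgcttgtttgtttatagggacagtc
Icam4: cagggtgccttcTTATCTcctgcggccagc
No such word stood in the windows of Cd47 and Xk, whose GC content was 73.2% or more, while the other 5 windows lay between 39.2% and 52.4%, the latter also the median of all windows. The word CCNCNCCC, which KLF-type factors read, was found in 2 of the 7 genes, Icam4 and Xk, against 48.5% of genes. A match is a stretch of letters and does not show that a factor was bound.

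Replicate 1 held 71485617 expected counts and replicate 2 held 14121747, which is 5.06 times fewer, so counting error is larger in replicate 2. Where no count was seen, 3 counts cannot be told from 0, and this floor lies at 0.042 CPM (counts scaled to library size) in replicate 1 and 0.212 CPM in replicate 2. The erythroid label was checked against markers: 8 of 8 erythroid genes were detected, 2 of 8 megakaryocyte genes (Itga2b and Gp9) were, and none of the mast cell, myeloid, lymphoid or stromal markers was. The megakaryocyte markers summed to 5.06 and 8.40 TPM (transcript abundance per length, scaled to 1 fixed total in each library), with Pf4, Ppbp and Gp6 at 0 in both libraries. The erythroid markers differed between the libraries in both directions, from Alas2 at 304 and 69.0 TPM to Klf1 at 634 and 2134 TPM. In bulk RNA, fewer cells with a transcript and less of it per cell cannot be told apart.

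All 9 genes passed 1 TPM in each of the libraries, the rule for detection here, where 33.1% of 22028 protein-coding genes did. Slc4a1, Gypc and Cd47 reached 100 TPM in both libraries, which is 3 of 9 beside 3.59% of protein-coding genes. Earlier results were known when the genes were chosen, so these shares are only set side by side. Between the ends of the list, Slc4a1 exceeded Kel 220 times in replicate 1 and 93.9 times in replicate 2. The levels fell into tiers in this table, which shift in other tables given below. In some of those Cd47 trades places by mean with Ermap, or Rhag with Rhd. Icam4 keeps its place there, but its range comes to overlap that of Cd47 or of Rhag. Slc4a1 stood alone at the top, Gypc, Cd47 and Ermap came next with ranges that overlapped each other, then Icam4, then Rhd, Xk and Rhag, again overlapping, and Kel was lowest. Of the 36 pairs of genes, 30 had ranges over the 2 libraries that did not overlap in this table and 6 overlapped. The same share for pairs of genes in general was not computed, so these counts only describe the 9 genes. The 9 genes summed to 1250 TPM in replicate 1 and 1078 TPM in replicate 2, of which Slc4a1 made up 58.0% and 44.9%.

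**Figure D1:**
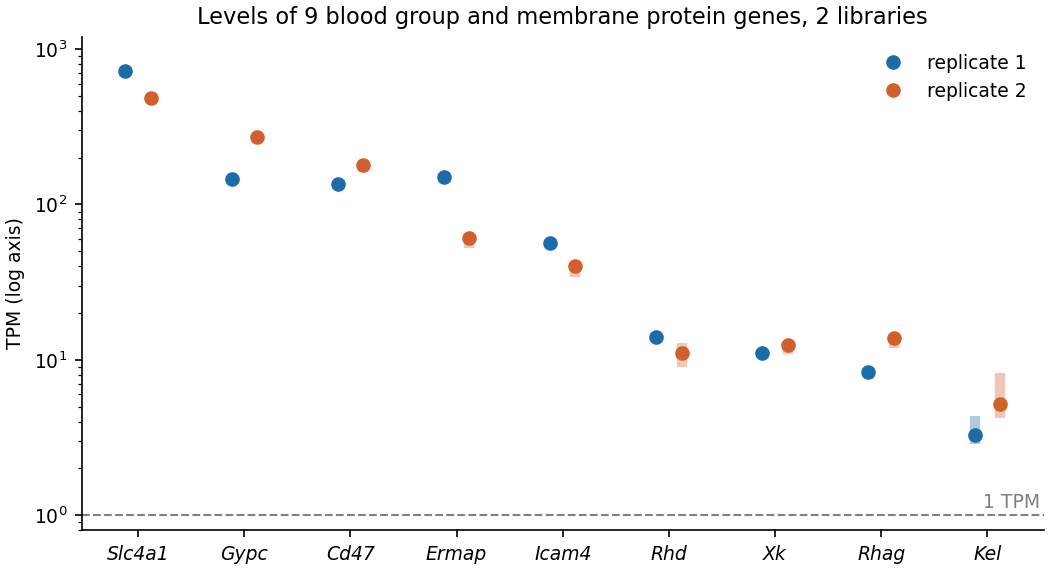
TPM of each of the 9 genes on a log axis, in order of the mean, with 1 point per library and the authors' interval of the posterior estimate as a pale bar (mostly smaller than the point; the sources used here give no level for it). The points are maximum likelihood values, and some lie above the bar drawn with them, as for Slc4a1 in both libraries. Slc4a1 lies above all others in both libraries and Kel below all others, and Gypc, Cd47 and Ermap change places between the libraries.

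Slc4a1 (ENSMUSG00000006574.15, chr11:102348824-102366203, minus strand, mm10) encodes the anion exchanger itself. Replicate 1 gave 725 TPM and replicate 2 gave 484 TPM, with a mean of 605 ± 170 TPM (SD, n = 2), on 225616 and 25000 expected counts. These levels were at percentiles 99.3 and 98.7 of protein-coding genes. The library of replicate 2 was the lower one, 0.668 times replicate 1 in TPM. Nearly all of the signal was assigned to Slc4a1-201, the transcript with the full coding sequence, with 97.6% and 94.2% of the gene's TPM. Slc4a1-202, a short transcript with no coding sequence annotated, took 2.33% and 5.80%. The protein-coding genes whose levels over the 2 libraries lay nearest to those of Slc4a1 were Pkm (800 and 546 TPM, pyruvate kinase), Nop53 (763 and 410 TPM) and Bcl2l13 (658 and 410 TPM), at distances of 0.22, 0.25 and 0.28 on the log2(TPM + 1) scale.

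Gypc (ENSMUSG00000090523.2, chr18:32528322-32560034, minus strand), the anchor to protein 4.1 and the carrier of Gerbich antigens in humans, ran the other way. Replicate 1 gave 146 TPM and replicate 2 gave 272 TPM, with a mean of 209 ± 89.0 TPM (SD, n = 2), on 21394 and 6849 expected counts. Here replicate 2 was the higher library, and the gap between the transporter and the anchor differed: Slc4a1 was 4.97 times Gypc in replicate 1 and 1.78 times in replicate 2. Gypc-203, with a coding sequence of 285 bases in 3 exons, held 96.4% and 91.5% of the TPM. Gypc-202, with 2 exons and 234 coding bases, held 3.57% and 8.53%.

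The Rh pair was present at much lower levels. Rhag (ENSMUSG00000023926.8, chr17:40811126-40840754, plus strand) encodes the Rh-associated glycoprotein, an ammonium and gas channel protein that Rh proteins need to reach the surface. Replicate 1 gave 8.33 TPM and replicate 2 gave 13.8 TPM, with a mean of 11.0 ± 3.83 TPM (SD, n = 2). Rhd (ENSMUSG00000028825.7, chr4:134864536-134896172, plus strand) encodes the Rh antigen polypeptide. Replicate 1 gave 14.0 TPM and replicate 2 gave 11.1 TPM, with a mean of 12.5 ± 2.02 TPM (SD, n = 2). In this table their order changed between the libraries, with Rhd 1.68 times Rhag in replicate 1 and 0.807 times in replicate 2. The partners thus did not differ beyond their spread here, while the table made from the reads, given next, has Rhag above Rhd in both libraries. Band 3 exceeded both by a wide margin in each library: Slc4a1 was 87.0 and 35.2 times Rhag and 51.9 and 43.6 times Rhd.

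The alignment-based table assigned all Rhag counts, 1320 and 375, to the full-length Rhag-201. The table made directly from the reads instead placed 41.9% and 66.4% of the gene's TPM on Rhag-202, a transcript of 386 bases annotated as a target of nonsense-mediated decay, on 180 and 142 estimated counts beside 2157 and 555 for Rhag-201. In that table, rescaled over nuclear protein-coding genes, Rhag had a mean of 24.4 TPM. It was at 18.2 and 30.7 TPM there and Rhd at 14.2 and 11.6 TPM, ranges that did not overlap. Before rescaling, Rhag was at 13.5 and 7.31 TPM and Rhd at 10.5 and 2.75 TPM, with overlapping ranges. Rhd-201 held 100% of Rhd TPM in replicate 1 and 88.6% in replicate 2, where the retained-intron transcript Rhd-202 took 11.4% on 8.89 counts. The read-based table put 10.4% and 49.9% of Rhd TPM on Rhd-202, on 78.1 and 83.8 counts.

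Icam4 (ENSMUSG00000001014.6, chr9:21029373-21030595, plus strand) is the Landsteiner-Wiener glycoprotein, an adhesion molecule that binds integrins. Replicate 1 gave 56.3 TPM and replicate 2 gave 40.2 TPM, with a mean of 48.2 ± 11.4 TPM (SD, n = 2), above every Rh and Kell gene in both libraries. Its 2 annotated transcripts differ in the final intron of 139 bases (chr9:21030243-21030381), which Icam4-202 retains. They also differ in where they begin, at chr9:21029373 for Icam4-201 and chr9:21029454 for Icam4-202. The part of each difference in the split of TPM below was not tested. Both models have 786 coding bases, and the reading frame of Icam4-202 ends inside the retained intron. Icam4-202 held 50.6% of the gene's TPM in replicate 1 and 77.4% in replicate 2, and the table made from the reads gave 44.4% and 75.9%. Replicate 2 therefore had the larger part on the retained form in both tables. The 40 bases around the end of exon 2 (from chr9:21030223, plus strand) show where the models part, with the intron bases in capitals.
Icam4-201: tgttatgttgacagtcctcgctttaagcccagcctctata
Icam4-202: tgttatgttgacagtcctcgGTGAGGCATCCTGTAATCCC
An antisense gene, Gm47079, spans the locus with 120 and 7 expected counts beside 3462 and 439 for Icam4. No source used here says whether strand was used in counting, so reads of the pair cannot be told apart. With the older GENCODE M4 annotation, which has only Icam4-201, the gene kept 2655 and 214 counts and was at 51.0 and 24.6 TPM.

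Cd47 (ENSMUSG00000055447.19, chr16:49800533-49915010, plus strand) encodes the surface protein that macrophages read through SIRPα as a sign not to engulf the cell, and that sits in the Rh complex of red cells. Replicate 1 gave 136 TPM and replicate 2 gave 178 TPM, with a mean of 157 ± 30.1 TPM (SD, n = 2). This level depends on the gene models. With M4, which has 2 transcripts of Cd47 where M21 has 10, it was at 33.8 and 42.7 TPM on nearly the same expected counts, 11749 and 2457 against 11655 and 2431. The effective length went from 5041 and 5147 bases with M4 to 1186 and 1105 bases with M21, and the mean TPM was 4.10 times higher with M21. The same ratio for the other genes lay between 0.895 and 0.938, and at 1.28 for Icam4. On the M4 scale the mean of Cd47 was 38.3 TPM and that of Icam4 was 37.8 TPM, with overlapping ranges: Cd47 was the lower of the pair in replicate 1 and the higher in replicate 2.

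**Figure D2:**
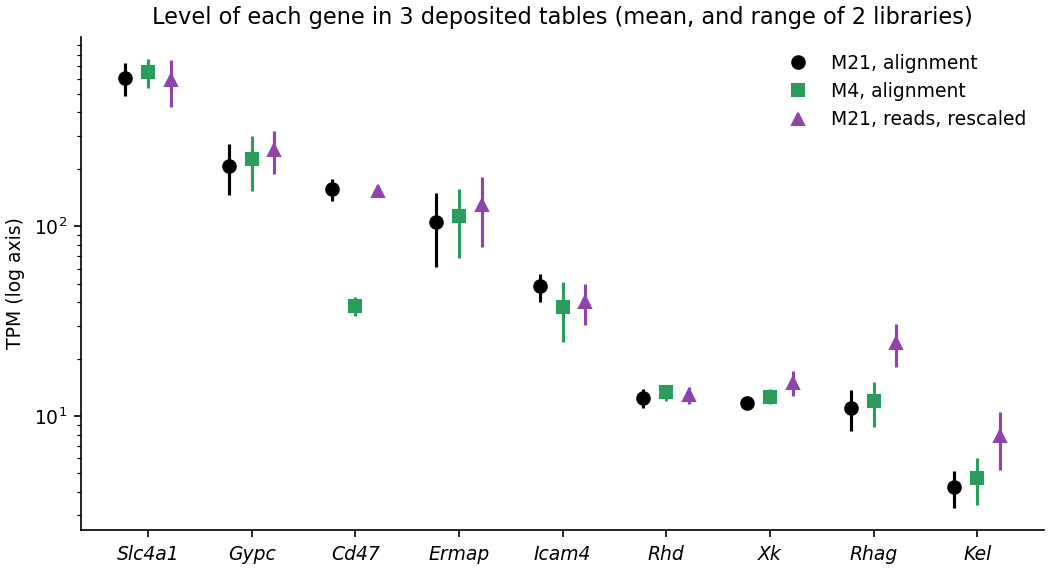
Mean TPM of each gene (log axis) in the alignment-based tables for GENCODE M21 and M4 and in the read-based table for M21 rescaled over nuclear protein-coding genes, with lines for the range of the 2 libraries. Cd47 is the gene whose level moved most with the annotation, from 157 to 38.3 TPM, and Rhag and Kel were higher in the read-based table, at 24.4 and 7.88 TPM.

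The cytoplasmic tail of CD47 is set by alternative use of small exons between the exon at chr16:49906781-49906812 and the last one. The coding ends of 4 transcripts are shown 5′ to 3′ on the plus strand from chr16:49906781, with the bases of the middle exons in capitals.
Cd47-209: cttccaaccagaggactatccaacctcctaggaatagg
Cd47-203: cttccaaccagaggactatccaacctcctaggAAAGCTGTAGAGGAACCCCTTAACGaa
Cd47-207: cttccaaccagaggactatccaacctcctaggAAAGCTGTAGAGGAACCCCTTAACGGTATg
Cd47-205: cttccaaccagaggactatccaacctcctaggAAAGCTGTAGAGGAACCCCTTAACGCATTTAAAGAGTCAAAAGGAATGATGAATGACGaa
Transcripts with no middle exon, led by Cd47-209, held 63.1% of Cd47 TPM in replicate 1 and 78.3% in replicate 2, and 69.3% and 59.7% in the table made from the reads. The short tail was thus the larger part in both libraries and both tables. The form with the 25-base exon, Cd47-203, held 6.81% and 21.7%, and 29.4% and 39.9% in the read-based table. The form that reads 4 bases further, Cd47-207, held 29.4% in replicate 1 on 3231 expected counts and was at 0 counts in replicate 2, and the read-based table gave it 56.2 and 0 counts. With all middle exons summed, 36.7% and 21.7% of TPM carried one in the alignment-based table and 30.2% and 40.3% in the read-based one, so the direction between the libraries differed by table. The longest tail shown, Cd47-205, and its like held 0.56% in replicate 1 and 0 in replicate 2, and 0.43% and 0.35% in the read-based table.

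The Kell pair was at the low end. Kel (ENSMUSG00000029866.13, chr6:41686330-41704339, minus strand), the endopeptidase that carries the Kell antigens, had 3.29 TPM in replicate 1 and 5.16 in replicate 2 (mean 4.23 ± 1.32 TPM, SD, n = 2), on 432 and 92 expected counts. Xk (ENSMUSG00000015342.6, chrX:9272756-9313250, plus strand) encodes its partner, a lipid scramblase family protein. Replicate 1 gave 11.0 TPM and replicate 2 gave 12.5 TPM, with a mean of 11.8 ± 1.07 TPM (SD, n = 2), the smallest spread relative to the mean among the 9 genes. Xk exceeded Kel in both libraries, 3.34 and 2.42 times, and their ranges did not overlap. Xk has a single annotated transcript. Of Kel TPM, 74.2% and 46.1% lay on the full-length Kel-201, and in replicate 2 40.7% lay on Kel-204, a partial model, on 18.9 counts. The read-based table had no Kel-204 in replicate 2 and put 12.3% and 50.7% on Kel-202, which has no coding sequence annotated. At these counts the split of Kel between transcripts is loosely determined. An unclassified transcript inside Kel on the same strand, Gm37527, had 17 and 4 counts, and H2al1m inside Xk had 1.26 and 0.

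Ermap (ENSMUSG00000028644.16, chr4:119175457-119190011, minus strand), the erythroblast membrane-associated protein of the immunoglobulin and butyrophilin kind that carries the Scianna antigens, was the gene on which the libraries differed most. Replicate 1 gave 151 TPM and replicate 2 gave 60.8 TPM, with a mean of 106 ± 63.5 TPM (SD, n = 2), on 16706 and 1191 expected counts. In replicate 1 it was above Gypc and Cd47, and in replicate 2 it was below both. Ermap-202, a model of 724 bases that lacks its 3′ end, held 60.5% and 68.3% of the TPM in the alignment-based table. In the read-based table it held 44.6% and 4.02%, and Ermap-207, annotated as a target of nonsense-mediated decay, held 16.6% and 47.8%. The 2 long models, Ermap-206 and Ermap-201, both have 13 exons and differ in 35 bases of exon 1, 4 bases of exon 7 and 134 bases of exon 13. The 4 bases of exon 7 decide the reading frame: Ermap-206 has 1776 coding bases, and Ermap-201, with 1002, is annotated as a target of nonsense-mediated decay. Exon 7 is shown on the minus strand (chr4:119183306-119183338 in Ermap-206), with these bases in capitals.
Ermap-206: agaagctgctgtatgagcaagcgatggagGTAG
Ermap-201: agaagctgctgtatgagcaagcgatggag
The full-length form had 9642 expected counts in replicate 1 and 14.0 in replicate 2, while the shorter reading frame had 2350 and 847. The read-based table gave 6769 and 114 counts to Ermap-206 and 3787 and 2247 to Ermap-201. In both tables Ermap-206 had more counts than Ermap-201 in replicate 1 and fewer in replicate 2. These forms share almost all of their bases, and the part of read assignment in this difference was not tested.

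Across the genes, 6 of 9 have an annotated transcript that is not classed as protein coding, and the part of TPM on such transcripts was set side by side after the values had been seen. It was larger in replicate 2 for Slc4a1 (2.44% and 5.80%), Ermap (10.7% and 31.3%), Rhd (0% and 11.4%) and Kel (9.12% and 13.2%), smaller for Cd47 (0.18% and 0%) and at 0 in both for Rhag. That is 4 of 6, where 47% of 6127 detected protein-coding genes with such a transcript had the larger part in replicate 2. In the alignment-based table the median part was 1.31% and 8.58% for the 6 genes and 17.7% and 19.4% for the genes compared. The read-based table, added as an alternative after the values had been seen, gave other medians: 15.7% and 51.1% for the 6 genes and 20.01% and 22.7% for the genes compared. By the reads, 4 of the 6 genes, and 51.4% of 6124 genes, had the larger part in replicate 2: Ermap (37.2% and 93.1%), Rhag (41.9% and 66.4%), Rhd (10.4% and 49.9%) and Kel (20.9% and 52.3%), while Slc4a1 had 7.92% and 6.66%. The median of the 6 genes was thus below that of the genes compared in both libraries in the first table, and above it in replicate 2 in the second.

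**Figure D3:**
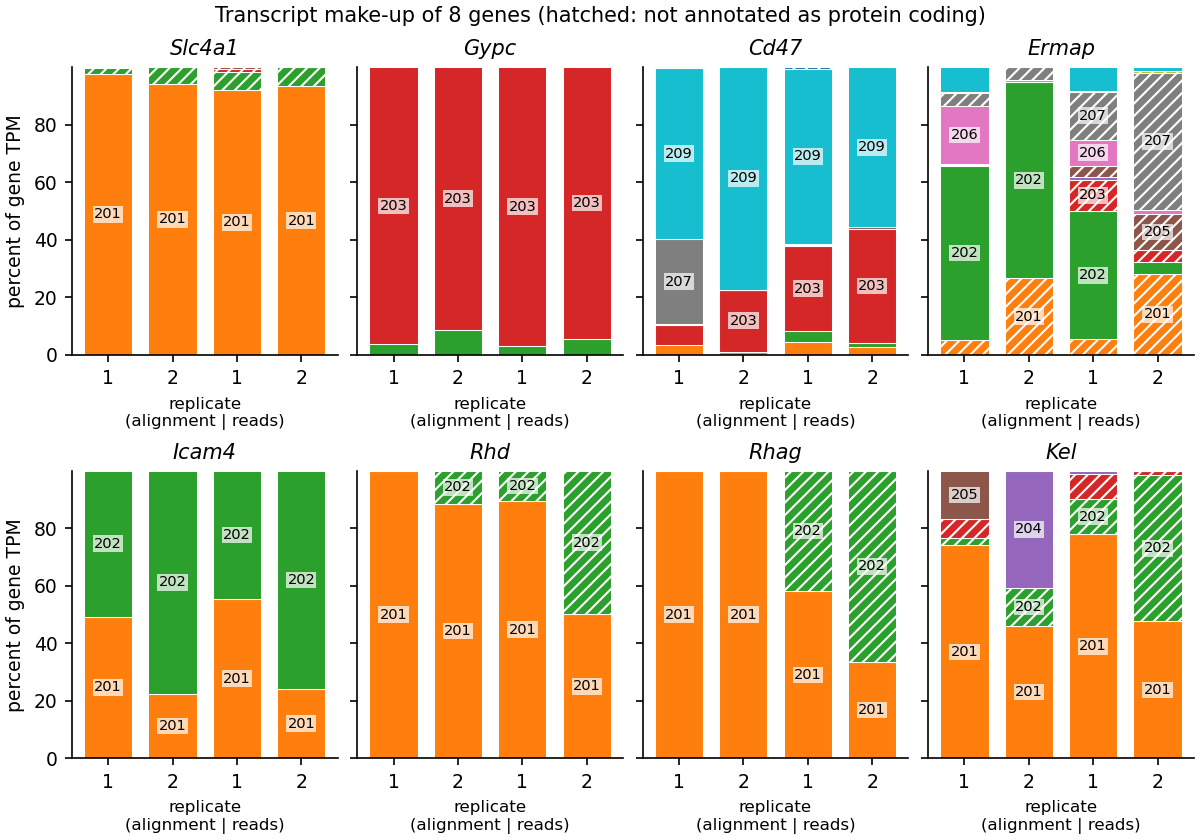
Percent of each gene's TPM on each annotated transcript for 8 of the 9 genes (Xk has 1 transcript), for replicates 1 and 2 in the alignment-based table (left pair) and in the read-based table (right pair), with transcript numbers on the larger parts and hatching for transcripts not annotated as protein coding. Slc4a1 and Gypc rest on 1 transcript in all 4 columns, and Icam4 has the larger part of its retained-intron form 202 in replicate 2 in both tables. The split of Cd47, Ermap, Rhag, Rhd and Kel differs between tables.

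Ermap alone among the 9 was more than 2-fold apart between the libraries, where 50.9% of 9029 genes were, all with 50 or more expected counts on average. A comparison of 1 library with 1 other describes these libraries only. In TPM, 5 genes were higher in replicate 2 (Gypc 1.86 times, Rhag 1.65, Kel 1.57, Cd47 1.31 and Xk 1.14) and 4 were lower (Rhd 0.795, Icam4 0.713, Slc4a1 0.668 and Ermap 0.404). The median log2 ratio of TPM + 1, replicate 2 over replicate 1, was 0.17 for the 9 genes and -0.32 for the genes compared. It changed sign with the scaling and was -0.021 in CPM, where the genes compared had a median of -0.59.

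In CPM, which takes no account of length, the ratio had a 95% exact binomial interval, which covers counting error only. It was 0.361 (0.340 to 0.383) for Ermap and 0.561 (0.554 to 0.568) for Slc4a1. Those of Icam4, at 0.642 (0.580 to 0.709), and Rhd, at 0.650 (0.553 to 0.761), also lay below 1. The ratio was 1.62 (1.58 to 1.67) for Gypc and 1.44 (1.28 to 1.61) for Rhag. Counting error alone reaches 1 for Xk, at 0.985 (0.911 to 1.07), and for Kel, at 1.08 (0.851 to 1.35), and Cd47 was close to it at 1.06 (1.01 to 1.10). Ermap, Icam4 and Slc4a1 were lower in replicate 2 under all 10 scalings and settings tried. Rhd was lower in 9, being 0.082 higher on the log2 scale once a trend on GC content was removed. Gypc, Cd47, Rhag and Kel were higher in 9 and Xk in 8, with the read-based table before rescaling as the exception for all 5 and CPM as the further one for Xk. The transcripts of Icam4 (57.5% GC) and Slc4a1 (56.7%) were the richest in GC of the 9 and those of Xk and Rhag (both 42.5%) the poorest, beside a median of 51.1% for the genes compared. The part of GC content in these differences was not tested beyond removing its trend, under which Ermap was at -0.88, no longer 2-fold apart, and Gypc, Rhag and Kel were at 1.31, 1.19 and 1.02.

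**Figure D4:**
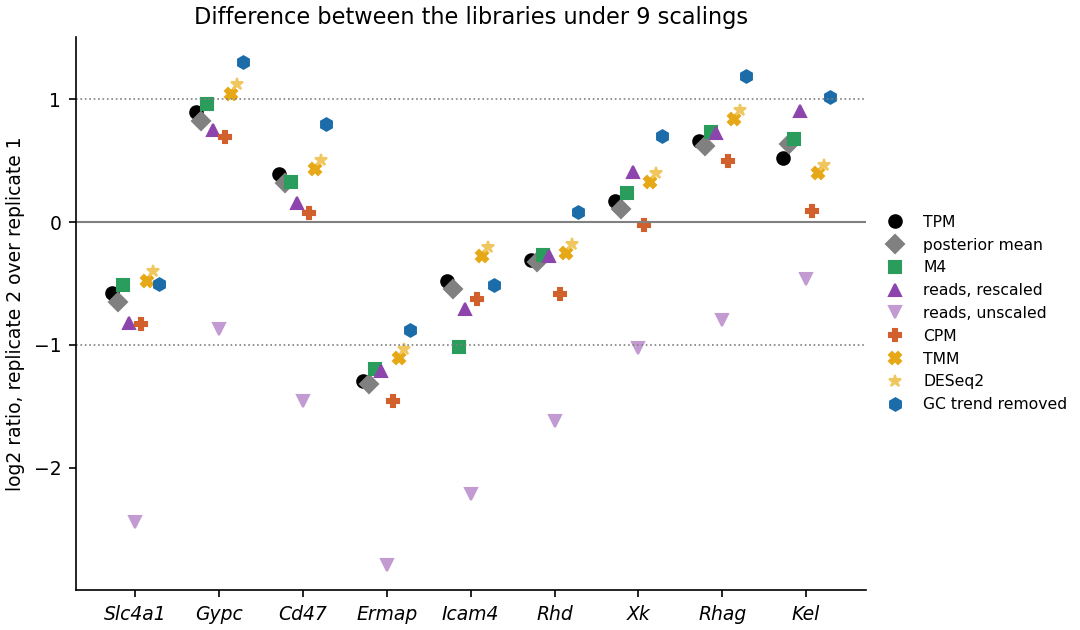
log2 ratio of replicate 2 over replicate 1 for each gene under 9 of the scalings, with 0 as the solid line and 2-fold as dotted lines. Slc4a1, Ermap and Icam4 lie below 0 under all of them, and the unscaled read-based table (pale triangles) lies below every other scaling for each gene.

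Each of these proteins has relatives elsewhere in the genome, and the levels within each family were compared on the TPM scale. Among 9 other SLC4 bicarbonate transporters only Slc4a2 was detected, at 21.5 and 34.0 TPM, and Slc4a1 exceeded it 33.7 and 14.2 times. Neither Rh relative was detected: Rhbg was at 0.01 and 0 TPM and Rhcg had no counts. Of 6 relatives of Kel among the M13 peptidases none was detected, the highest being Ece1 at 0.58 and 0.21 TPM, while Ecel1 and Phex had no counts. Of 6 relatives of Xk only Xkr6 was, at 3.12 and 5.54 TPM, and Xk exceeded it 3.53 and 2.26 times. Vps13a, the lipid transfer protein that binds XK, was at 3.79 and 0.48 TPM and so fell short of detection in replicate 2. Icam4 exceeded Icam2, the 1 of 3 other ICAM genes detected (6.25 and 5.83 TPM), 9.01 and 6.89 times. Ermap was closest to a relative: Btn1a1, a butyrophilin, was at 55.7 and 29.1 TPM, 2.71 and 2.09 times below it, and the other 5 butyrophilin genes were not detected. In each of these families the gene described here was the highest in both libraries.

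**Figure D5:**
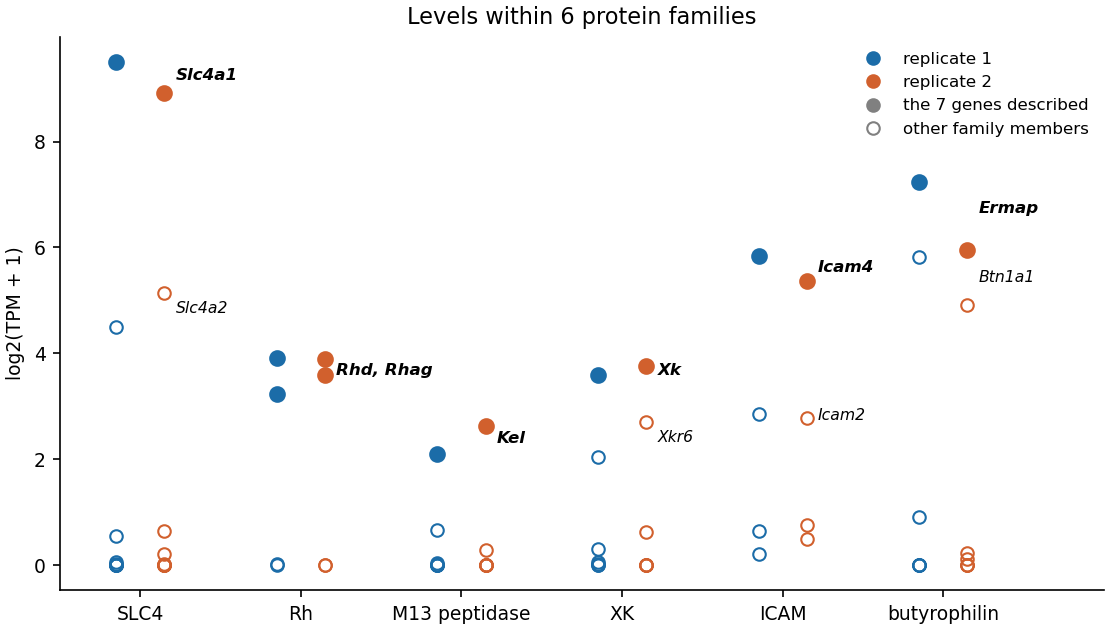
log2(TPM + 1) of 7 of the 9 genes (filled) and of the other members of their protein families (open), for replicates 1 and 2. The filled points lie above the open ones of the same library in all 6 families, with the narrowest gaps in the butyrophilin and XK families.

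Most listed partners of band 3 and glycophorin C were detected, and fewer of those of Icam4 and Cd47. Of 10 genes for proteins bound to band 3 or glycophorin C, 9 were detected, led by Sptb (beta spectrin, 959 and 523 TPM), Car2 (carbonic anhydrase, 799 and 665 TPM) and Ank1 (ankyrin, 459 and 355 TPM). The exception was Epb42, protein 4.2, which binds band 3 directly and had 1.25 and 0.26 TPM on 279 and 13 expected counts. Icam4 binds integrins, and 3 of 7 subunits were detected: Itgb1 at 30.3 and 72.4 TPM, Itgav at 12.4 and 66.2 TPM and Itga4 at 15.7 and 6.54 TPM. Itgam and Itgal were not, with no counts for Itgam and 8 and 6 for Itgal. The receptor and ligands of CD47 on the list, Sirpa, Thbs1 and Thbs2, were at 0 counts in both libraries.

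Of 25 other genes for blood group antigens and red cell surface proteins found in the table, 14 were detected, or 9 at a threshold of 5 TPM. The highest were Bsg, which carries the Ok antigen (802 and 851 TPM), Ache, which carries the Yt antigens (565 and 768 TPM), and Smim1, which carries Vel (335 and 309 TPM). In replicate 2 Bsg and Ache both exceeded Slc4a1, at 484 TPM, and in replicate 1 Bsg did. Of the others, 4 had no counts in either library, among them Emp3 and Cd36. None of 8 genes for enzymes that make carbohydrate antigens was detected, and 5 of these, with B4galnt2 and Gbgt1 among them, had no counts.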

How the data were processed

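The gene and transcript tables of the 2 libraries were made by the authors from an alignment to the transcriptome on mm10 for GENCODE M21 and M4, and a further M21 transcript table from the reads, per the deposited file descriptions. Aligner and quantifiers, not given in the sources used here, cannot be named. Expected counts, as deposited, are estimated fragments per entry, not normalized. The authors' TPM, per the file headers, is scaled to 1 fixed total over the entries of a table, with a maximum likelihood value (used here) and a posterior mean. The deposited upper bound of the interval is a signal on the TPM scale that need not sum to that total. The deposited percent column gives a transcript's part of its gene, and shares were recomputed here from TPM. The deposited effective length is in bases.

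Genes were called detected at 1 TPM in both replicates and compared between libraries at a mean expected count of 50 or more, with a pseudocount of 1 on the log2 scale. Expected counts were rounded for edgeR TMM factors and DESeq2 size factors, which served as scalings only. No gene was tested, since there is 1 group. The counting code was tested on simulated counts with counting error only, so that test does not cover other spread between the libraries.

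Alternatives were the M4 tables, the read-based table as deposited and rescaled over nuclear protein-coding genes, posterior means, CPM, TMM, DESeq2 size factors, removal of a GC trend in 20 bins, other thresholds and each replicate alone. Named were all 9 genes, genes overlapping them and the 3 nearest to Slc4a1 in level. The 3 highest detected and 2 lowest undetected genes of each of 11 lists were also named. Ece1, Vps13a, Sirpa, Pf4, Alas2 and Klf1 were added after their values were seen. The genes and lists were chosen with earlier results of these data known. Versions were Python 3.11.15 with pandas 2.3.3, numpy 2.4.6, matplotlib 3.10.9 and scipy 1.17.1, and R 4.3.3 with DESeq2 1.42.0 and edgeR 4.0.16.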

Additional observations from a re-analysis of the deposited data

How the results depend on the processing

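All 9 genes stayed detected under the alternatives tried for that count, except that 8 passed 5 TPM in both libraries, Kel being below it. In the read-based table as deposited, 1 of the 9 reached 100 TPM in both libraries and 5 of 9 kept their place in the order. The number of other blood group genes detected went from 14 to 9 at 5 TPM. The number of the 9 genes over 2-fold apart is given beside the share of all genes compared. It was 2 with M4 (50.1% of genes), with the rescaled read-based table (37.2%), with TMM (47.8%) and with DESeq2 size factors (48.0%). It was 6 in the read-based table as deposited (77.2%), 3 with the GC trend removed (48.8%), 4 at 1.5-fold (70.0%) and 0 at 3-fold (31.0%). The median log2 ratio of the 9 genes was -1.46 in the read-based table as deposited, -0.021 in CPM, 0.33 with TMM, 0.40 with DESeq2 size factors and 0.70 with the GC trend removed. The cause of these shifts was not tested. Of the single levels, 1 of 9 moved by more than the spread between libraries with M4 (Cd47), 3 with the rescaled read-based table and 6 with that table as deposited. With 2 libraries, leaving one out cannot move a mean beyond their spread; the level of Ermap went from 106 to 60.8 TPM without replicate 1. The transcript with the highest mean TPM differed for 2 of 9 genes in the read-based table (Icam4, Rhag) and for 2 with M4 (Icam4, Cd47). No paired analysis was possible because the series has 1 group. With 2 libraries that may share a culture, the spread has no more than 1 degree of freedom, and replicate 2 limits what can be said of Kel and of rare transcripts.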
